A study of Mus musculus with 6 samples.

Results

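DNA methylation was described at 8 mouse genes of glutamine and α-ketoglutarate metabolism, Psat1, Gls2, Glul, Glud1, Got1, Idh1, Ogdh and Gpt. The 8 genes were chosen by name, and each was measured over its annotated span plus 1000 bases at each side. They are 8 of 11419 genes with at least 1 position in the part of the table used. The assay was reduced representation bisulfite sequencing, in which bisulfite-converted genomic fragments enriched for CpGs are read. The treated group held 3 libraries of intestinal organoids with the genotype Apc Min that received DM-aKG, and the control group held 3 libraries of the same kind of organoids with the control treatment. Apc Min, carried by both groups, truncates Apc, an inhibitor of Wnt signalling, and the labels list organoid medium and a medium low in glutamine for every library. The labels call the material primary cells and the series design calls the libraries biological replicates. Whether replicates came from separate animals, the age and sex of the animals, and the dose and duration of DM-aKG are not given there. The series title relates the treatment to α-ketoglutarate. Methylation levels identify no cell type, so the labelled tissue was not checked against markers.

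The genes sit around a metabolite pair that joins nitrogen metabolism to the tricarboxylic acid cycle. Glutaminase turns glutamine into glutamate and glutamine synthetase does the reverse. Glutamate becomes α-ketoglutarate either through glutamate dehydrogenase or through aminotransferases, which pass the amino group to another keto acid. α-Ketoglutarate is also made from isocitrate, is used up by the 2-oxoglutarate dehydrogenase complex, and is a co-substrate of dioxygenases that include the TET enzymes, which oxidise 5-methylcytosine. The comparison asks how the methylation of these genes differed between DM-aKG and control organoids.

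Each value is the percent of methylation at 1 cytosine position in 1 library, as the authors deposited it. Values from 1 to 39 do not occur, so a 0 may be either a level under 40% or a missing call, and no 0 was used as a level. Positions 1 base apart were taken as the strands of 1 CpG. A site here is a position with a value in all 6 libraries, and a gene level is the mean over its sites. The levels thus speak of cytosines at or above 40% in every library. The read depth behind each value is unknown, no coverage minimum could be set, and no interval from read counts is given. The libraries had a value at 85.2% to 86.0% of 390208 positions with DM-aKG and at 83.7% to 88.6% in the controls, and 272327 positions were sites. The mean level over these sites was 88.3% to 88.9% in the DM-aKG libraries and 86.7%, 87.9% and 88.0% in control replicates 1 to 3.

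The 8 genes held 192 positions, of which 125 (65.1%) were sites, against 69.8% over all positions. Got1 had 50 sites, Ogdh and Gpt 19 each, Psat1 13, Glul 11, Gls2 6, Idh1 5 and Glud1 2. The median over the 9197 genes with at least 3 sites was 15. All genes but Glud1 passed that minimum and were tested. The sites lay in tight clusters. The 13 sites of Psat1 spanned 121 bases of a gene of 19937 bases, the 5 of Idh1 spanned 189 bases and the 6 of Gls2 spanned 40 bases. Sites that close can be read from the same fragments, so they are not separate measurements of a gene. None of the sites lay within 1000 bases of another annotated gene.

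The measured sites stood away from the gene starts in the 6 genes whose start was used here, all but Gls2 and Gpt. RefSeq promoter windows, from 250 bases before to 50 after a start, were at hand for 6 of the 8 genes, 13 windows in all, and no position with a value fell in any of them. Over all windows on the stretch of genome used, 4.32% of 18212 held a position with a value. The 13 windows held 11 to 51 CGs each. They are not all separate: the Ogdh windows that start at 6291347, 6291356 and 6291409 overlap, so a CG or CCGG they share counts in each. The dinucleotide CG, which reads the same on both strands, occurred in 95.04% of all windows with a median of 7 per window, while the upstream window of Psat1 held 20 and that of Glud1 held 51, more than 99.2% of all windows. The tetramer CCGG, which contains CG and also reads the same on both strands, was found in 10 of the 13 windows and in 53.4% of all windows, and 7.95% of the windows with CCGG held a position with a value. A window without values can be under 40% methylated or not read, and the table cannot tell these apart. The upstream window of Psat1, the gene with the smallest p below, and the window of Glud1, with the most CGs of the 13, are shown. None of their CGs, given in capitals, has a value. The Psat1 window shown holds no CCGG. A further Psat1 window, at chr19:15924573-15924872, held 30 CGs and 3 CCGGs and also no position with a value. The windows shown read 5′ to 3′ along the gene, from RefSeq for GRCm38.p6, the assembly of mm10. They lie at chr19:15925010-15925309 on the minus strand and chr14:34310477-34310776 on the plus strand.
Psat1: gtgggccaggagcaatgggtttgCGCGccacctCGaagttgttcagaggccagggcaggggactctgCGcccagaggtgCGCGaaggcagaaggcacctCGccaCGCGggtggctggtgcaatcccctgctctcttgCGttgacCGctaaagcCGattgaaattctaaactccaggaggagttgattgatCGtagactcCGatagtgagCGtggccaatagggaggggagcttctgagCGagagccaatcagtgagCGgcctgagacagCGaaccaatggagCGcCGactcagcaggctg
Glud1: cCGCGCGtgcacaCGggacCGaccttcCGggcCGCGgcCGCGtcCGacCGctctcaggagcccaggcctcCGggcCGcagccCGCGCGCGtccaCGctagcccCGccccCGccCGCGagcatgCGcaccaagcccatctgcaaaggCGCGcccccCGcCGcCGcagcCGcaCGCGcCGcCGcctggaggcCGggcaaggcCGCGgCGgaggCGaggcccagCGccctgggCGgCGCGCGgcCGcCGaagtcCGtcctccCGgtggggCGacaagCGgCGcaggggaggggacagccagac

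The nearest site to a gene start was 1797 bases into Glul, 3043 into Glud1, 5218 into Got1, 5713 into Ogdh, 7847 into Psat1 and 21437 into Idh1. The results for these genes therefore describe gene bodies. The orientation of Gls2 and Gpt was not used here. The 6 sites of Gls2 lay before the lower coordinate of its span and not inside it. Of the 19 sites of Gpt, 14 lay inside the span and 5 beyond its upper coordinate.

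Across the genes no methylation level differed between DM-aKG and control beyond the adjusted threshold of 0.05, by limma on log2 odds of the gene level with Benjamini-Hochberg adjustment over 9197 genes. Among the 7 tested genes, 4 had lower and 3 higher means with DM-aKG, with a median difference of -1.39 percentage points. Over all genes 66.3% had higher means with DM-aKG, and the median difference was 0.733 points. With the library means made equal 2 of the 7 were higher and 5 lower, against 43.9% of all genes higher. Without control replicate 1 the counts were 1 and 6, against 62.8% of all genes higher. The median over the 7 turned to 0.904 points without control replicate 3, against 0.833 points over all genes. With each 0 counted as a level 4 were higher and 3 lower, against 49.0% of all genes higher. Psat1 was the one gene whose DM-aKG libraries all lay below all controls, which was the case for 2.53% of all genes. The other 6 tested genes had groups that overlapped. The background of the test is 0% of genes past the adjusted threshold and 6.23% at an unadjusted p under 0.05 (4.94% with the DM-aKG mean above and 1.29% with it below), and Psat1 was the 1 of 7 genes in the lower class.

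**Figure D1:**
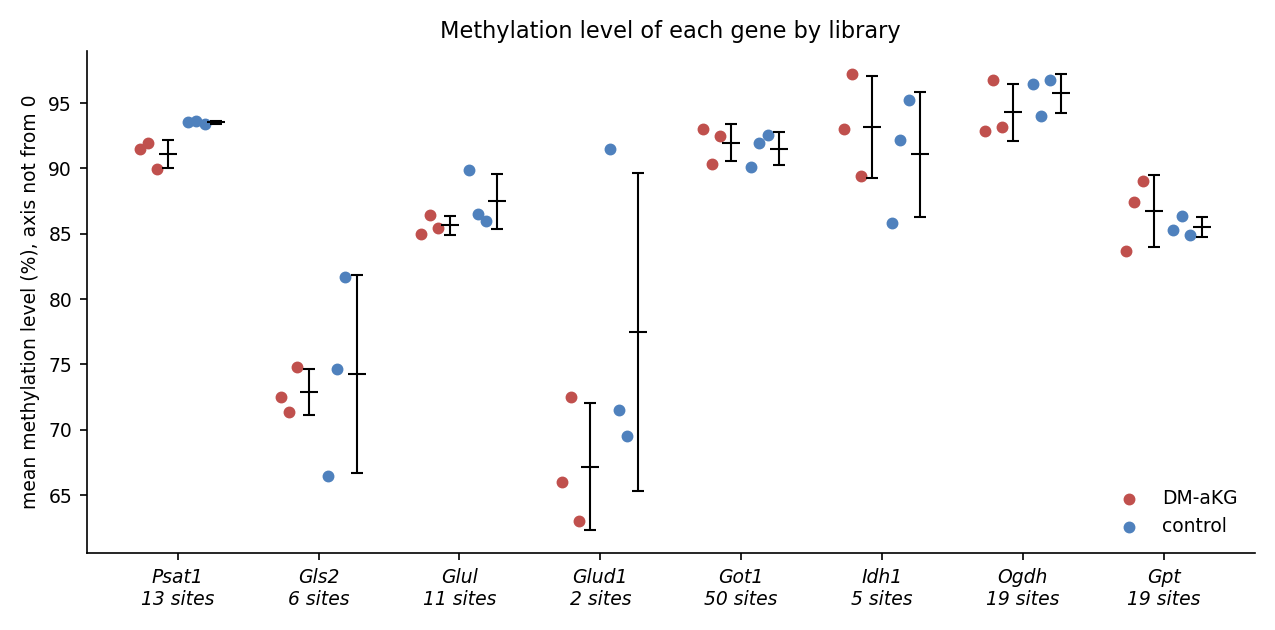
Gene levels (%, vertical axis, which does not start at 0) of the 8 genes in each library (points), with the mean and SD of each group in black (n = 3). The 3 DM-aKG libraries lie below the 3 controls in Psat1, and the groups overlap in the other 7 genes; the controls of Gls2 and Glud1 spread over 15.2 and 22 points.

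Gls2, which encodes the liver-type glutaminase (chromosome 10, 128194635 to 128210004), had 72.5%, 71.3% and 74.8% in DM-aKG replicates 1 to 3, against 66.5%, 74.7% and 81.7% in control replicates 1 to 3. The treated libraries lay inside the range of the controls. The means were 72.9% ± 1.78 with DM-aKG and 74.3% ± 7.59 in the controls (SD, n = 3 each), a difference of -1.39 points with a 95% interval of -10.3 to 7.57 (limma adjusted p = 0.910). The direction turned to 2.31 points without control replicate 3 and to 8.33 points with each 0 counted as a level. Counting each 0 added 1 position, 128193796, which had a value only in DM-aKG replicates 1 and 2. Gls2 was among the less methylated genes, with site means over the 6 libraries from 55.5% to 87.5%. Its site at 128193668 was 10 points higher with DM-aKG (88%, 81% and 81%, against 57%, 76% and 87% in the controls), and the groups overlapped there too.

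Glul, which encodes glutamine synthetase (chromosome 1, 153899929 to 153909723), had 85.0%, 86.5% and 85.5% in the DM-aKG libraries, against 89.9%, 86.5% and 86.0% in the controls. Control replicate 1 stood above the other 5 libraries, and the difference of -1.85 points (95% interval -5.09 to 1.39, limma adjusted p = 0.771) was -0.636 points without it and -21.5 points with each 0 counted as a level. The group means were 85.6% ± 0.744 with DM-aKG and 87.5% ± 2.12 in the controls (SD, n = 3 each). The sites fell into a pair of clusters with different levels. The 6 sites from 153901726 to 153901782, 1797 to 1853 bases into the gene, averaged 75.6% ± 1.84 with DM-aKG and 79.6% ± 3.91 in the controls, and the 5 sites from 153903054 to 153903080 averaged 97.7% ± 0.70 and 97.0% ± 0.20 (DM-aKG and control, SD, n = 3 each).

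The first of these Glul clusters held 3 of the 7 sites over all 8 genes at which the groups did not overlap. At 153901726 the DM-aKG libraries had 59%, 65% and 59%, against 84%, 67% and 69% in the controls. At 153901740 they had 81%, 82% and 79%, against 92%, 85% and 87%. The neighbouring position 153901741, the opposite strand of the same CpG, had 80%, 80% and 74% with DM-aKG and 87%, 84% and 86% in the controls. The differences were -12.3, -7.33 and -7.67 points, and no site passed the adjusted threshold (limma on untransformed levels over 272327 sites, adjusted p = 0.872, 0.846 and 0.819). The last pair of this cluster, 153901781 and 153901782, was higher with DM-aKG by 2.67 and 7 points with groups that overlapped, so the cluster did not move as a whole.

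Glud1, which encodes mitochondrial glutamate dehydrogenase (chromosome 14, 34310727 to 34345033), had a single CpG with values, read on both strands. Its level was 66.0%, 72.5% and 63.0% with DM-aKG, against 91.5%, 71.5% and 69.5% in the controls. Control replicate 1 was the only library above 72.5%. The means were 67.2% ± 4.86 with DM-aKG and 77.5% ± 12.2 in the controls (SD, n = 3 each), and the difference of -10.3 points, the largest of the 8 genes, was -3.33 points without control replicate 1. With genes of at least 1 site admitted, its limma adjusted p was 0.773.

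Psat1, which encodes the phosphoserine aminotransferase of serine synthesis and yields α-ketoglutarate as it works (chromosome 19, 15905123 to 15925059), had 91.5%, 91.9% and 89.9% in the DM-aKG libraries, against 93.5%, 93.6% and 93.4% in the controls. The controls lay within 0.231 points of one another, and all 3 treated libraries were below them. The means were 91.1% ± 1.05 with DM-aKG and 93.5% ± 0.118 in the controls (SD, n = 3 each), a difference of -2.41 points with a 95% interval of -4.77 to -0.0455. The unadjusted limma p on log2 odds was 0.0265 and the adjusted p 0.764, so the difference did not pass. With limma on untransformed levels, which gave the interval, they were 0.0469 and 0.716. A difference at least this low was found in 6.40% of all genes, and a larger one in either direction in 29.7%.

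Of the 13 Psat1 sites 9 were lower and 4 higher with DM-aKG, and at none of them did the groups separate. The largest differences were at 15917145, 15917172 and 15917211, by -10.3, -7.67 and -6 points. The first of these sites had 76%, 100% and 70% with DM-aKG and 100%, 88% and 89% in the controls. Site differences ran from -10.3 to 2 points with a median of -2.33. Opposite strands of the same CpG differed within a library by a median of 6 points over the 6 pairs of Psat1. The gene level was lower with DM-aKG without any 1 of the libraries, by values between -2.82 and -1.82 points. It was -13.9 points when each 0 was taken as a level (limma adjusted p = 0.555).

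Got1, the cytosolic aspartate aminotransferase gene (chromosome 19, 43499752 to 43524605), had the most sites, 50. Its level was 93.0%, 90.3% and 92.5% with DM-aKG, against 90.1%, 91.9% and 92.5% in the controls, and the groups overlapped. The means were 92.0% ± 1.43 with DM-aKG and 91.5% ± 1.26 in the controls (SD, n = 3 each), a difference of 0.44 points with a 95% interval of -2.52 to 3.40 (limma adjusted p = 0.922). Its direction turned without control replicate 1 (-0.27 points) and without DM-aKG replicate 1 (-0.10 points), and it was -7.19 points with each 0 counted as a level. Its 50 sites formed 7 clusters along the gene, with differences from -2.71 to 3.33 points and overlapping groups in each. The cluster nearest the start, 5218 to 6028 bases into the gene, held the least methylated sites, down to a mean of 57.2%, and averaged 86.1% ± 0.72 with DM-aKG and 85.7% ± 3.65 in the controls. Of the 50 sites 21 were higher and 24 lower, and 5 were at 100% in all 6 libraries. The groups separated at 1 site, 43517921, by 1.67 points (97%, 97% and 98% with DM-aKG, and 96%, 96% and 95% in the controls). At 43505419 the difference was 22.3 points, with 100%, 57% and 78% in the DM-aKG libraries and 57%, 64% and 47% in the controls, groups that overlapped.

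Gpt, which encodes an alanine aminotransferase (chromosome 15, 76696726 to 76699675), had 83.7%, 87.4% and 89.1% with DM-aKG, against 85.3%, 86.4% and 84.9% in the controls. DM-aKG replicate 1 was the lowest and DM-aKG replicate 3 the highest of the 6 libraries. The means were 86.7% ± 2.75 with DM-aKG and 85.5% ± 0.767 in the controls (SD, n = 3 each), a difference of 1.21 points with a 95% interval of -2.58 to 5.01 (limma adjusted p = 0.851), which was 0.0439 points with DM-aKG replicate 3 left out and 2.73 points with replicate 1 of that group left out. Gpt held the site with the smallest p of all 125, 76699058, at 97%, 92% and 91% with DM-aKG and 78%, 83% and 79% in the controls. That site was 13.3 points higher with DM-aKG (limma adjusted p = 0.663). The opposite strand of the same CpG, at 76699059, was 11 points lower, with 74%, 85% and 78% in the DM-aKG libraries and 94%, 76% and 100% in the controls.

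Idh1, which encodes the cytosolic NADP-dependent isocitrate dehydrogenase (chromosome 1, 65158616 to 65186479), had 93.0%, 97.2% and 89.4% with DM-aKG, against 85.8%, 92.2% and 95.2% in the controls. The groups overlapped, and control replicate 1 was the lowest library. The means were 93.2% ± 3.90 with DM-aKG and 91.1% ± 4.80 in the controls (SD, n = 3 each), a difference of 2.13 points with a 95% interval of -5.08 to 9.35 (limma adjusted p = 0.852), which was -0.50 points without control replicate 1. At 65164854 all 3 DM-aKG libraries were at 100%, against 67%, 91% and 95% in the controls (adjusted p = 0.872). Another 3 of its 5 sites differed by 6.33 points or more in either direction with groups that overlapped.

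Ogdh, which encodes the catalytic E1 subunit of the 2-oxoglutarate dehydrogenase complex (chromosome 11, 6291597 to 6359094), was the most methylated of the 8 genes in the controls. It had 92.9%, 96.8% and 93.2% with DM-aKG, against 96.4%, 94.0% and 96.8% in the controls. The means were 94.3% ± 2.18 with DM-aKG and 95.7% ± 1.52 in the controls (SD, n = 3 each), a difference of -1.46 points with a 95% interval of -5.06 to 2.15 (limma adjusted p = 0.799), which was -0.763 points with DM-aKG replicate 1 left out and -2.71 points with replicate 2 of that group left out. It turned to 5.55 points with each 0 counted as a level. Its 19 sites formed 3 clusters. The middle one, 5 sites 43283 to 43304 bases into the gene, had 82.6%, 97.6% and 89.8% with DM-aKG and 95.8%, 92.4% and 97.8% in the controls, a difference of -5.33 points with overlapping groups, while the outer clusters differed by 0.20 and -0.22 points. In that middle cluster the site at 6334889 was at 87%, 88% and 75% with DM-aKG and at 100% in all 3 controls (limma adjusted p = 0.761). The other strand of that CpG, at 6334888, was at 100% in all 6 libraries.

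**Figure D2:**
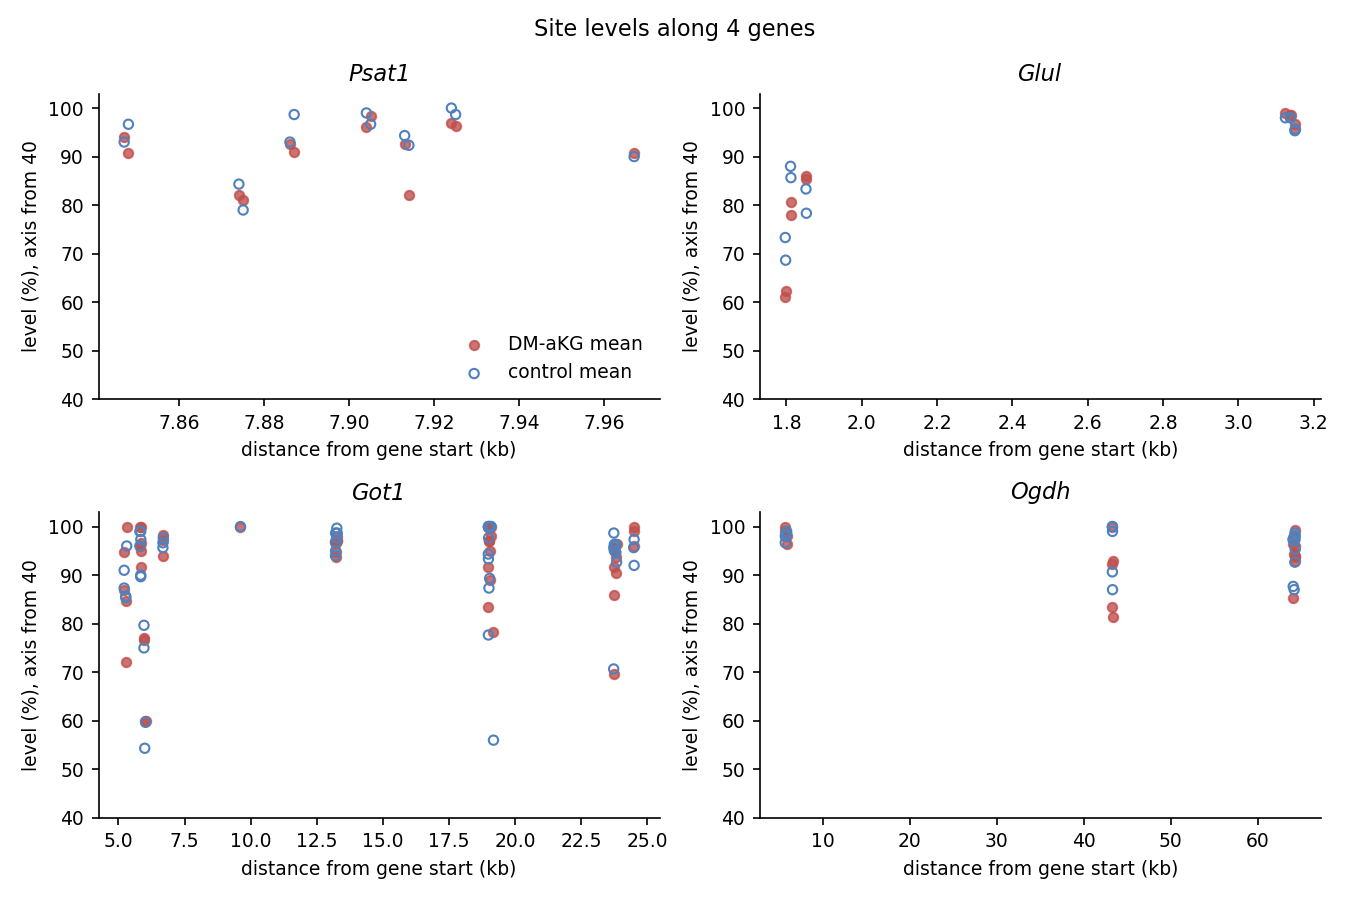
Mean level (%, vertical axis from 40) of each site with DM-aKG (filled) and in the controls (open) against the distance from the gene start (kb, horizontal axis, a different scale in each panel) for Psat1, Glul, Got1 and Ogdh. Sites stand in tight clusters, and levels differ more between and within clusters than between the groups, as in Glul, whose clusters are at 75.6% and 97.7% with DM-aKG.

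Site by site, differences in the 2 directions were about as frequent. Of the 125 sites 55 (44%) were higher with DM-aKG, 61 (48.8%) lower and 9 equal, against 53.3% higher and 40.3% lower over all 272327 sites. All DM-aKG libraries lay above all controls at 3 sites (2.4%), against 4.63% of all sites, and below them at 4 (3.2%), against 2.5% of all sites. No site of the 8 genes passed the adjusted threshold by limma on untransformed levels, and 0% of all sites did. On log2 odds, an alternative to the scale chosen for sites, 407 of all 272327 sites passed and 0 of the 125. Whether the 407 are true differences was not tested. An unadjusted p under 0.05 was reached by 4 of the 125, 1 of them higher and 3 lower, while 5.44% of all sites reached it. The median difference of the 125 sites was 0 points, against 0.667 over all sites. The share of higher sites was thus below that of all sites and the share of lower sites above it. The sites of a cluster can be read from the same fragments, so the counts carry no test.

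**Figure D3:**
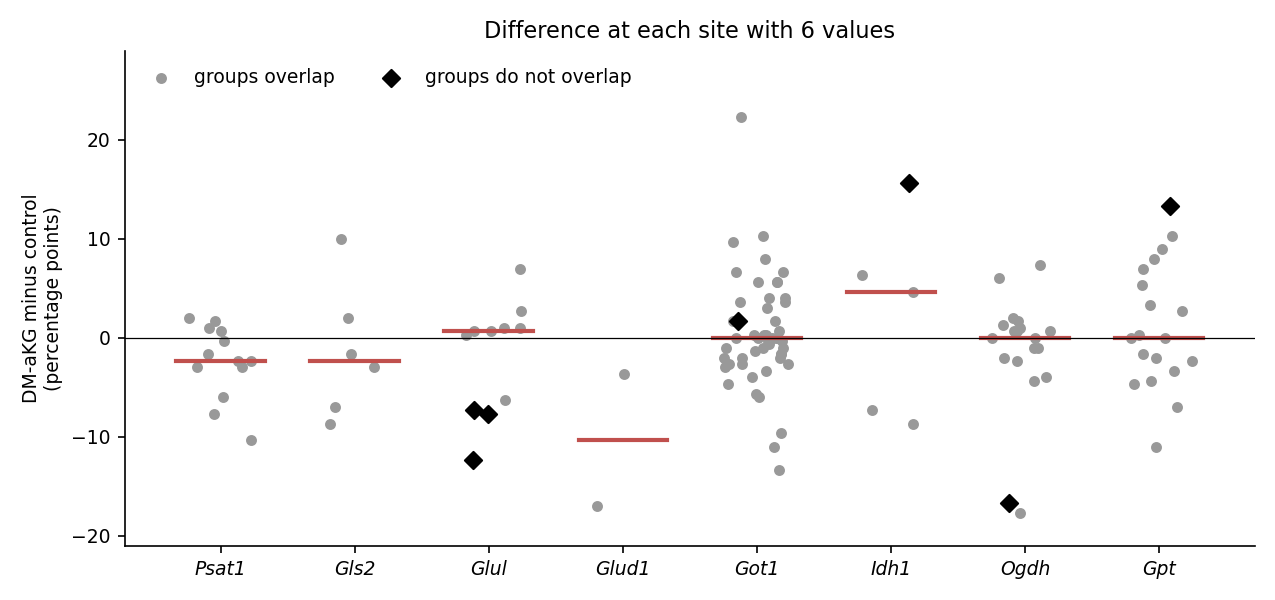
Difference between the mean of the DM-aKG libraries and the mean of the controls (percentage points, vertical axis) at each of the 125 sites, by gene; red lines are gene medians and diamonds are the 7 sites at which the groups do not overlap. Most points of the 8 genes lie within 10 points of 0, and the 3 lower diamonds of Glul come from 1 cluster of 57 bases.

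In 51 CpGs of the 8 genes both strands were sites, and within a library the strands differed by a median of 5 points (mean 6.99), against 4 (mean 6.89) over 102124 such pairs. By gene the median ran from 2.5 points in Glul to 14 in Idh1.

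Positions without a value were unevenly spread over the 8 genes and the libraries. Of the 192 positions 18 (9.38%) had a value in more DM-aKG libraries than controls, against 12.5% of all positions, and 43 (22.4%) had a value in more controls, against 13.4%. DM-aKG replicates 1 to 3 had a value at 140, 157 and 151 of the positions and control replicates 1 to 3 at 143, 166 and 183, so the groups overlapped. Glul alone held 22 of these 43, most of them in the stretch from 153907956 to 153908159. Of all 43 positions in Glul, 9 had a value in more DM-aKG libraries. Its DM-aKG libraries had a value at 13, 21 and 23 positions and its controls at 18, 29 and 37. In Got1, 3 of the 65 positions had a value in more DM-aKG libraries and 12 in more controls, with values at 54, 57 and 54 positions with DM-aKG and at 56, 61 and 63 in the controls. Psat1 had no position with a value in more DM-aKG libraries and 8 with a value in more controls, with values at 14, 17 and 18 positions with DM-aKG and at 17, 19 and 21 in the controls. Ogdh had 4 positions with a value in more DM-aKG libraries and none in more controls.

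A single position of the 8 genes, 153904596 in Glul, had a value in no DM-aKG library and was at 100% in each of the 3 controls, a pattern found at 0.459% of all positions. The reverse pattern occurred at no position of the 8 genes and at 0.314% of all positions. Where some library lacked a value, the values that were present were mostly at 100%, 163 of 190 (85.8%) in the 8 genes and 73 of 75 in Glul. Over all incomplete positions that share was 44.5%. Among the sites of the 8 genes 30% of values were at 100%. Whether a missing value marks a low level or too few reads was not tested, since the table gives no depth.

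**Figure D4:**
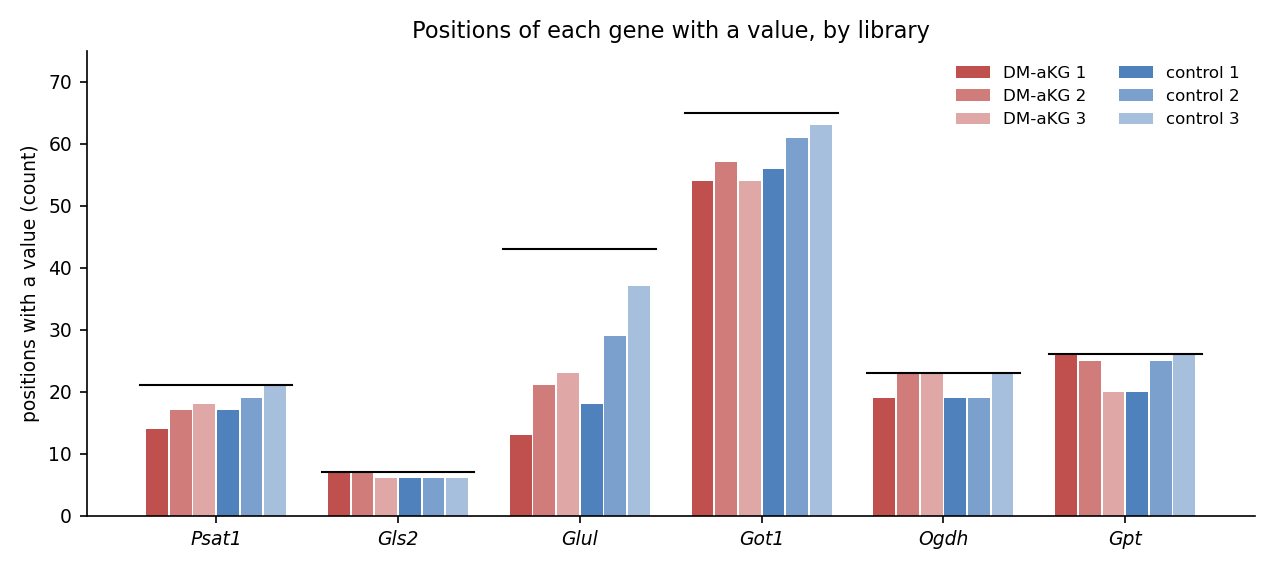
Number of positions with a value (vertical axis) in each DM-aKG library (red) and each control (blue) for the 6 genes with incomplete positions; the black line is the number of positions of the gene. In Glul the counts run from 13 to 23 with DM-aKG and from 18 to 37 in the controls. Control replicate 3 has a value at every position of Psat1, Ogdh and Gpt, as have DM-aKG replicates 2 and 3 in Ogdh and DM-aKG replicate 1 in Gpt.

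Other genes of the same metabolism, like most genes tested, mostly had higher means with DM-aKG. A list of 85 further genes of glutamine, glutamate, serine, proline and tricarboxylic acid cycle metabolism and their transporters had 38 with at least 3 sites. No listed gene on chromosomes 4 to 9 or X had a site in the rows used. On chromosome 3, Phgdh, Gclm, Slc16a1 and Kyat3 had none either, while Gmps and Slc7a11 were tested. Later rows were not used, so whether the assay reached the genes without a site is not shown. "All genes" means the genes in the rows used. Of these 32 (84.2%) had higher and 6 lower means with DM-aKG, with a median of 1.09 points, against 66.3% higher and a median of 0.733 points over all genes. None passed the adjusted threshold by limma, 1 was higher and 0 lower at an unadjusted p under 0.05, and the groups did not overlap in 5, all higher, against 11.3% of all genes with DM-aKG above control. With the library means made equal the counts were 20 higher and 18 lower, while 43.9% of all genes were higher. The list median was then 0.0430 points and the median of all genes -0.317 points. Without control replicate 1 the counts were 27 higher and 11 lower, against 62.8% of all genes higher. The list median was then 0.491 points, near the 0.487 points of all genes. With each 0 counted as a level, 39 genes of the list were tested, 16 higher and 23 lower, against 49.0% of all genes higher.

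Gad1, which encodes a glutamate decarboxylase, had 79.4%, 77.9% and 82.4% in the DM-aKG libraries, against 75.7%, 76.4% and 70.8% in the controls, over 9 sites. The groups did not overlap, and the means were 79.9% ± 2.32 with DM-aKG and 74.3% ± 3.07 in the controls (SD, n = 3 each). The difference of 5.63 points had a 95% interval of 0.865 to 10.4 and a limma adjusted p of 0.764, so it did not pass. In the other direction, Dld, whose product is a subunit of the 2-oxoglutarate dehydrogenase complex together with that of Ogdh, averaged 92.5% ± 2.04 with DM-aKG and 94.4% ± 0.859 in the controls. The succinate dehydrogenase subunit gene Sdhc averaged 87.1% ± 3.01 with DM-aKG and 89.2% ± 2.41 in the controls over 3 sites. Aldh18a1, which acts in proline synthesis, averaged 92.3% ± 0.909 with DM-aKG and 93.0% ± 1.93 in the controls. The adjusted p-values of these 4 genes were 0.764 or more.

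**Figure D5:**
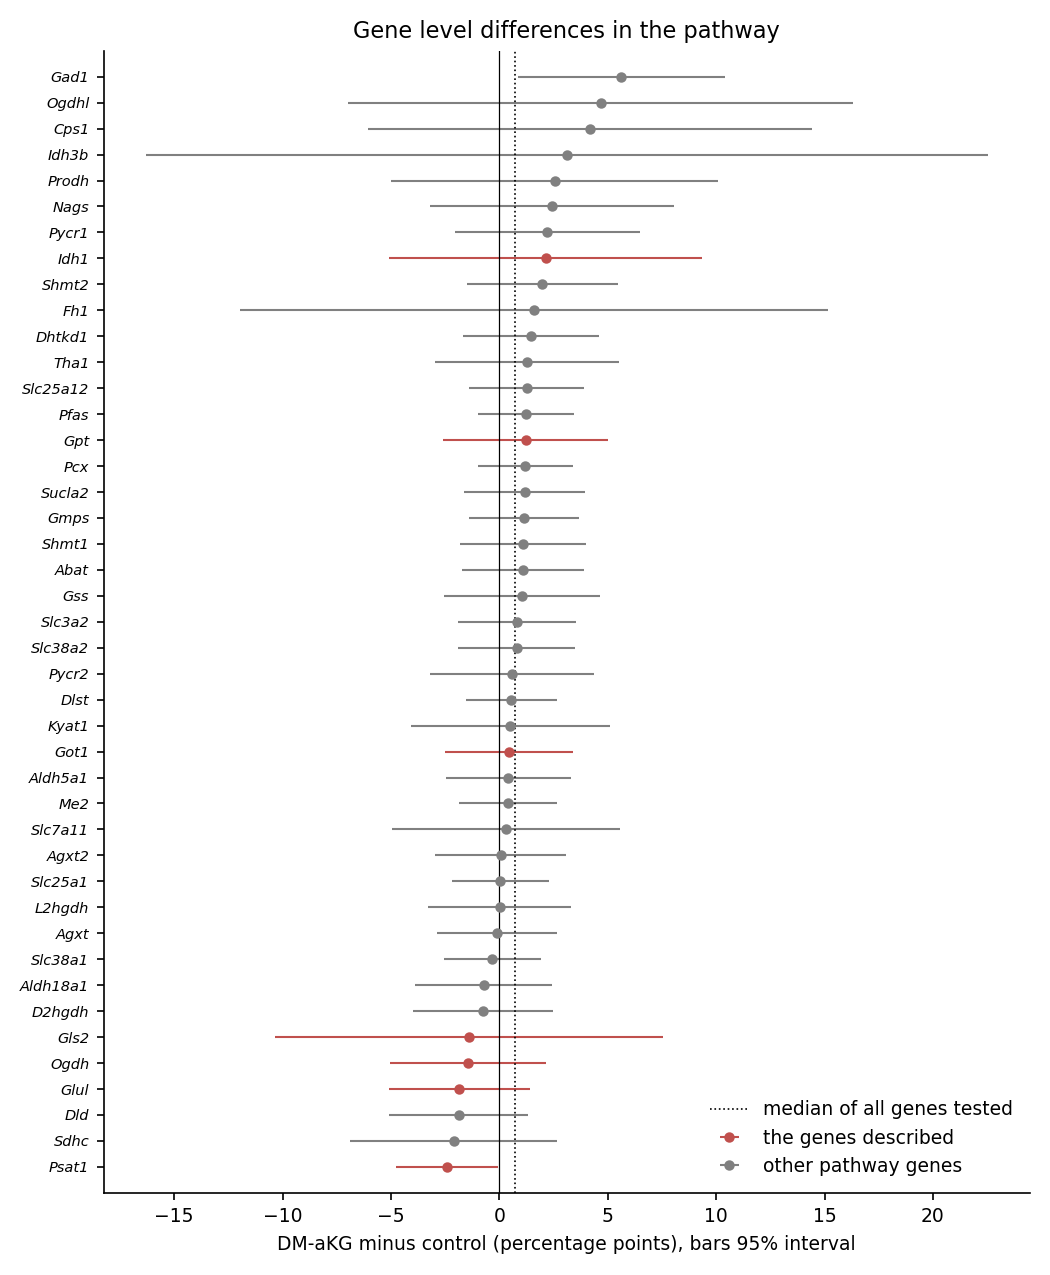
Difference in gene level, DM-aKG minus control (percentage points, horizontal axis), with 95% intervals from limma on untransformed levels, for the 7 tested genes (red) and 36 of the other pathway genes (grey); the dotted line is the median of all genes tested, 0.733. Psat1 has the lowest value of the 43 drawn and Gad1 the highest, and most intervals cross 0.

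By likeness of level over the 6 libraries, measured as the root mean square difference, the closest gene of that list was Abat to Got1 (0.960 points), Slc38a1 to Ogdh (1.67), Aldh18a1 to Psat1 (1.72), Shmt1 to both Glul (1.86) and Gpt (2.31), and Gss to Idh1 (2.79). Gls2 and Glud1 had no close counterpart, with Gad1 at 7.69 and Ogdhl at 10.6 points.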

How the data were processed

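The authors deposited 1 table with whole-number percent methylation for 6 libraries at each cytosine; per the submitters' processing notes the build was mm10, with CASAVA 1.8 and Novoalign 3.08.02 named. What each tool did, and how methylation was called, is not given in the sources used here. Only the first 390208 of 813850 rows were used: there, correlations between libraries were 0.598 to 0.770, and in later autosomal rows those between control replicates 1 and 2 and the other 4 libraries were -0.00432 to -0.00137. Of 4225 positions inside RefSeq promoter windows 99.93% were C or G with the start column counted from 1, so positions are printed 1-based. Gene spans came from GRCm38.p6.

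Gene levels, over at least 3 sites, were tested with limma 3.58.1 (R 4.3.3) on log2 odds with an offset of 0.01, and sites on untransformed percent. Both used all 6 libraries and Benjamini-Hochberg adjustment. Both were also run on simulated data, the outcome of which is not reported here, so how many true differences they miss is not given. Intervals come from limma on untransformed levels. Clusters of sites are separated by more than 500 bases, a spacing set after the data were seen. The genes named were the 8 genes, up to 2 sites per direction with the largest difference and separate groups (or else the largest difference), 3 other pathway genes per direction by p, and the closest in level. Some genes this rule names are not reported here. The genes, lists and tests were chosen with earlier results of these data known. The other sites and windows named were chosen after their values were seen. Alternatives covered scale, replicate block, single libraries, flanks, site minimum, library means, the treatment of 0, incomplete sites and averaged neighbours. If replicates are not separate cultures or animals, p-values measure technical spread.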

Additional observations from a re-analysis of the deposited data

How the results depend on the processing

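None of the 7 genes tested passed the adjusted threshold in the alternatives run, 17 for each gene but Gls2, which had 15 because its sites lie more than 500 bases outside its span, with adjusted p-values from 0.555 to 0.999. Glud1 was tested only with at least 1 site per gene (limma adjusted p = 0.773). Over all genes 0 passed by limma (573 at an unadjusted p under 0.05), 1 on untransformed levels, 1 with at least 1 site per gene and 7 with each 0 counted as a level; the cause was not tested. Over all sites 0 passed (14803 unadjusted), 407 on log2 odds and 0 to 9 with single libraries left out. Why these site counts differ between scales was not tested either. With each 0 counted as a level the differences of Gls2, Got1 and Ogdh turned to 8.33, -7.19 and 5.55 points, those of Glul and Psat1 were -21.5 and -13.9, and that of Got1 was -0.611 with equal library means. Leaving out single libraries gave -5.28 to 2.31 points for Gls2, -0.27 to 1.25 for Got1 and -0.50 to 4.2 for Idh1. Psat1, Glul and Gpt kept their direction in these alternatives. The 7 sites with separate groups became 14 to 18 with single libraries left out, where fewer libraries have to be separate. The median of the other pathway genes was 0.0430 points with equal library means, -1.58 with each 0 counted as a level, and 0.491 to 1.22 with single libraries left out. The median of all genes was -0.317, -0.111 and 0.487 to 0.833 points in the same settings.

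No pairing of the libraries by replicate number was evident. Deviations from the group means correlated at 0.0652, -0.0276 and 0.0306 for the same numbers, and not every library correlated best with its own number. These values cannot show whether libraries of the same number shared a culture or animal. With the replicate block 0 genes and 0 sites passed, and the median of the other pathway genes was 1.09 points. The unknown depth limits all site values.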
